A study of Mus musculus with 16 samples.

Results

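The potassium channel genes described here are the 92 genes of the count table whose symbol is Kcn, then letters for the family and a number, out of 24539 gene symbols in all. By their symbols, 77 encode pore-forming subunits and 15 encode auxiliary subunits that bind to a pore. Of the 92, 56 passed the filter on low counts and were tested, 30 had counts but did not pass it, and 6 had no count in any library. The cells were GAD67-GFP-positive cells, GABAergic cells on their way into the cortex, that had been cut out by laser from mouse embryos whose mothers had received an insecticide, restraint stress, both or neither. Their RNA was sequenced from 16 embryos, 4 in each of 4 groups.

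Potassium channels let potassium leave the cell and so set the resting potential, end action potentials and limit firing. A young neuron acquires them step by step, and in migrating cells they take part in the control of membrane potential and of calcium signals. Pore-forming subunits assemble around a narrow selectivity filter, and the families differ in what opens them, such as voltage, calcium, sodium, G proteins, nucleotides or membrane stretch. Pyrethroids such as cypermethrin act mainly on voltage-gated sodium channels, whose depolarizing current the voltage-gated potassium channels oppose.

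All groups shared the CD1 strain, the GAD67-GFP+/- genotype, embryonic day 14.5, a recorded male sex and the fixation of the brain before capture. The vehicle group without stress came from dams given corn oil by gavage on gestational days 11 to 14. The cypermethrin group without stress came from dams given alpha-cypermethrin at 10 mg/kg on the same days. The vehicle group with stress and the cypermethrin group with stress received the same gavages, and these dams were also restrained under bright light, in 3 sessions of 45 min on days 12 and 13 and again on day 14. The last gavage preceded euthanasia by 90 min, and the last restraint ended 15 min before it. Each library held about 1000 GFP-positive cells from the leading edge of migration in the cortical plate, about 100 from each of 10 sections of 10 µm, and each embryo came from a separate litter.

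Library totals ran from 2291283 to 4324129 counts, and levels are given as CPM, counts relative to the scaled size of the library. The labels name the cell type as neural progenitors. All 13 interneuron markers were detected, with a summed level of 1555 to 2534 CPM over the 16 libraries. The 9 glutamatergic neuron markers summed to 4476 to 7476 CPM, 6 Cajal-Retzius markers to 1679 to 3179 CPM and 9 radial glia markers to 606.1 to 893.7 CPM. Meningeal fibroblast markers summed to 1242 to 3436 CPM, endothelial markers to 111.6 to 500.8 CPM and macrophage and microglia markers to 42.5 to 449.8 CPM. The lists differ in the number and length of their genes, so these sums give no proportions of cell types. In such bulk samples fewer cells of a type and less RNA per cell cannot be told apart, and the cell type behind a channel gene's counts is not known. The library labelled vehicle stressed replicate 1 went against its recorded sex, with 9521 counts of Xist against at most 26 in the others and 1 count over 4 Y-linked genes against at least 555, so differences that rest on it are also given without it. A code in the library names, whose meaning the labels do not give, divided the libraries into 7 and 9, and only 1 cypermethrin library without stress carried the smaller code. Fitted differences given with an SE are therefore also given within each code, the smaller before the larger.

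The coding sequences showed what the pore-forming members share. The selectivity filter is encoded by 5 codons, a threonine or serine codon, any codon, a glycine codon, a tyrosine or phenylalanine codon and a second glycine codon. This signature was searched in frame on the coding strand only, with ACN, TCN, AGT or AGC for threonine and serine. The codon GGN stood for glycine, and TAT, TAC, TTT or TTC for tyrosine and phenylalanine. It was found once in each of the 63 pore-forming members outside the Kcnk family. Of the 14 Kcnk members, whose subunits carry a pair of pore domains, 11 held it 2 times and 3 (Kcnk1, Kcnk6 and Kcnk7) held it 1 time, while 0 of the 15 auxiliary members held it. Over all 21595 genes with a coding sequence, 572 (2.649%) held it, so most of the genes that held it were not members. The sequences below are from members with high levels in several pore families, and they are shown because they encode the selectivity filter of the pore. Capitals mark the filter codons and lower case marks the 15 coding bases on each side, 5′ to 3′ on the coding strand, read from the longest coding transcript of GENCODE vM21 (GRCm38, mm10).
Kcna1: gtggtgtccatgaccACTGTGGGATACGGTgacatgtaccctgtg
Kcnc1: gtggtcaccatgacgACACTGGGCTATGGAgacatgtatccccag
Kcnd3: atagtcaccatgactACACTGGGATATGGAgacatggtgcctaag
Kcnv1: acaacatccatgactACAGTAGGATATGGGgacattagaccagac
Kcnh7: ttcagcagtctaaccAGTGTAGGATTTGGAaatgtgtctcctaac
Kcnma1: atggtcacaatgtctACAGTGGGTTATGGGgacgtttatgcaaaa
Kcnt2: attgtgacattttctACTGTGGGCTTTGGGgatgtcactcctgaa
Kcnn3: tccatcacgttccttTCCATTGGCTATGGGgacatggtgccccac
Kcnj3: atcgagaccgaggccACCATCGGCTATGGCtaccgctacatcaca
Kcnk10 first: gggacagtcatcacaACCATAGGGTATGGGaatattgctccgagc
Kcnk10 second: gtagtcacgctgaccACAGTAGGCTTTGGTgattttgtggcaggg

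The filter codons of Kcna1 lie in exon 2 at chr6:126642228-126642242 on the minus strand, and those of Kcnt2 in exon 9 at chr1:140425278-140425292 on the plus strand. Among all 88 signatures of the 77 pore-forming members, 61 had a tyrosine codon at the fourth place and 27 a phenylalanine codon. The phenylalanine codon stood in all 8 Kcnh members, in Kcnt1, Kcnt2 and Kcnu1, in Kcnj8 and Kcnj11, and in 14 of the Kcnk signatures. The filter codons were split by an intron in 17 members, namely the 3 Kcnd genes and the first signature of all 14 Kcnk genes. In Kcnd3 they run from exon 1 to exon 2, at chr3:105459914-105658617 on the plus strand.

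The 92 members together made up 1665 to 2560 CPM in a library. The group means of this sum were 1869 ± 114.6 CPM in the vehicle group without stress, 2012 ± 367.9 with cypermethrin alone, 1893 ± 180.5 with stress alone and 1836 ± 165.4 with both (SD, n = 4 each). The highest sum was that of cypermethrin nonstressed replicate 4, the library with the fewest counts, and the 4 groups overlapped. Of the members, 40 had counts in all 16 libraries. The coefficient of variation over the 16 libraries had a median of 61.6% among the tested members and of 50.6% among all 13224 tested genes.

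Among the members given here, Kcnh7, an ERG-type voltage-gated channel, stood at 110.8 ± 36.3 CPM (SD, n = 16). Kcnn2, a small-conductance calcium-activated channel, stood at 107.8 ± 40.1 CPM, and Kcnc1, a fast Kv3 channel, at 101.5 ± 31.2 CPM. Kcnd3, an A-type Kv4 channel, stood at 96.7 ± 36.9 CPM, Kcnt2, a sodium-activated channel, at 79.6 ± 32.4 CPM, and Kcnma1, the large-conductance calcium-activated channel, at 79.0 ± 25.4 CPM. Kcnq3, a subunit of the M-current channels that hold neurons back from repetitive firing, stood at 75.6 ± 24.0 CPM, the silent subunit Kcnv1 at 72.3 ± 42.8 CPM, the G-protein-gated inward rectifier Kcnj3 at 65.3 ± 25.5 CPM, the small-conductance Kcnn3 at 63.9 ± 25.8 CPM and the Kv1 channel Kcna1 at 63.6 ± 16.6 CPM. These levels, and the family sums and shares of counts below, grow with gene length, so genes are compared only per kilobase.

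**Figure D1:**
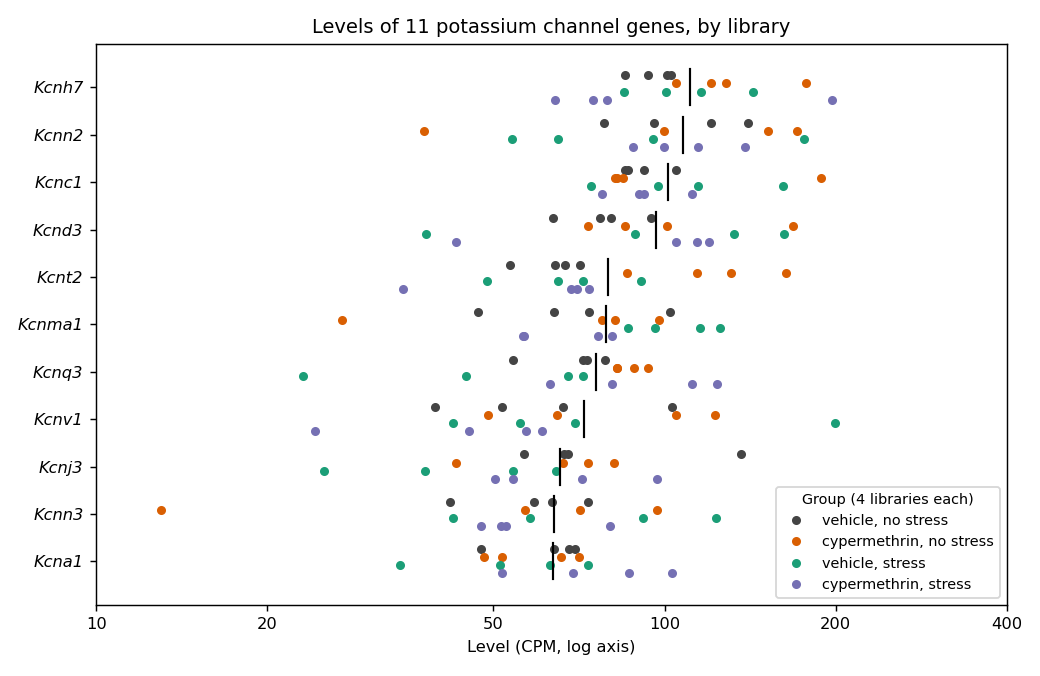
Level of 11 potassium channel genes named in the text, in CPM on a log axis, for each of 16 libraries (points, coloured by group, 4 libraries each), with the mean over all libraries as a black line. Kcnh7 reaches 197 CPM in cypermethrin stressed replicate 1, and Kcnv1 reaches 200 CPM in vehicle stressed replicate 1.

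Per kilobase of exons the order among these genes was Kcnv1 at 15.8 ± 9.34 CPM, Kcnn2 at 14.4 ± 5.37, Kcna1 at 13.3 ± 3.46, Kcnj3 at 12.5 ± 4.90, Kcnt2 at 11.5 ± 4.69, Kcnc1 at 10.7 ± 3.30 and Kcnd3 at 10.1 ± 3.85 (CPM per kb, SD, n = 16). Each of these levels per length differed from its neighbour by less than 1 SD. With the longest transcript in place of all exons, Kcnn2 stood at 29.3 CPM per kb and Kcnv1 at 16.5, so the order of this pair depended on the gene model. These genes came from different families, voltage-gated, calcium-activated, sodium-activated and inward-rectifying.

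Among the voltage-gated families, the Kv7 genes (Kcnq) held 18.9% of all member counts and summed to 353.7 ± 63.6 CPM. Kcnq3 and Kcnq5, both known from neurons, had levels of 5.14 and 5.66 CPM per kb. Kcnq1, the heart and epithelial member, had 59 counts over 16 libraries and was not tested. The long non-coding RNA Kcnq1ot1, which overlaps Kcnq1 on the opposite strand, stood at 1260 CPM, and since the use of strand in counting is not given, the counts of Kcnq1 are uncertain.

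The Kv1 genes (Kcna) summed to 169.0 ± 24.4 CPM, the Kv3 genes (Kcnc) to 152.2 ± 62.9 and the Kv4 genes (Kcnd) to 122.2 ± 37.4 CPM (SD, n = 16). Besides Kcna1, the axonal Kv1 channel Kcna2 stood at 3.45 CPM per kb and Kcna6 at 7.02. Kcnd2, the second A-type channel, stood at 2.63 CPM per kb. Kcnc1, a channel that lets mature parvalbumin interneurons fire fast, stood at 10.7 CPM per kb, and which cells of the samples expressed it was not tested. Silent subunits (Kcnf, Kcng, Kcns, Kcnv), which form no channel alone and modify Kv2 channels, numbered 10. Of these 10, 3 were tested, Kcnv1, Kcng1 and Kcnf1.

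The EAG, ERG and ELK genes (Kcnh) summed to 172.0 ± 52.4 CPM, and Kcnh7 alone stood at 7.28 CPM per kb. Kcnh2, the ERG channel of the heart, was at 1.31 CPM per kb. The small-conductance calcium-activated genes (Kcnn) summed to 184.1 ± 52.9 CPM, and the large-conductance and sodium-activated genes (Kcnma, Kcnu, Kcnt) to 183.0 ± 40.7 CPM. Exons of 13 members overlap another gene, among them Kcnh7, Kcnn2, Kcnt2, Kcnma1, Kcnd3 and Kcnh3 on the opposite strand. Of those partners, Gca reached 33.5 CPM beside Kcnh7, A330093E20Rik 40.5 CPM beside Kcnn2 and Mcrs1 34.8 CPM beside Kcnh3, so part of these members' counts is uncertain. The partners of Kcnt2, Kcnma1 and Kcnd3 stood at 1.27, 0.865 and 1.66 CPM.

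The inward rectifiers (Kcnj) summed to 124.6 ± 28.5 CPM, and 7 of 15 were tested. Kcnj3 and Kcnj6 are partners in the channels that G proteins open, and stood at 12.5 and 0.561 CPM per kb. Kcnj11 and Kcnj8, the pores of ATP-sensitive channels, stood at 4.62 and 2.67 CPM per kb, and their regulatory subunits Abcc8 and Abcc9 at 7.77 and 5.93. Kcnj10, the inward rectifier of mature astrocytes, had 16 counts in all, 2 in vehicle stressed replicate 2 and 14 in cypermethrin stressed replicate 4. The other 14 libraries had 0 counts of Kcnj10.

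The tandem-pore genes (Kcnk), whose products give a leak current, summed to 119.7 ± 34.5 CPM, and 5 of 14 were tested. Kcnk2 and Kcnk10, which belong to the stretch-sensitive TREK group, had levels of 6.97 and 6.75 CPM per kb. The 5 tested Kcnk genes spanned 1.47 to 6.97 CPM per kb. Among auxiliary subunits, which summed to 152.2 ± 35.1 CPM, the Kv4-binding proteins Kcnip1 and Kcnip3 stood at 7.69 and 9.52 CPM per kb. The Kv1-binding Kcnab2 stood at 0.900 CPM per kb, and Kcnmb4, the neuronal auxiliary subunit of the large-conductance channel, at 2.34. Kcnmb4 overlaps Kcnmb4os2 and Kcnmb4os1 on the opposite strand, which stood at 2.86 and 0.459 CPM against 7.79 CPM for Kcnmb4, so its counts are uncertain too.

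**Figure D2:**
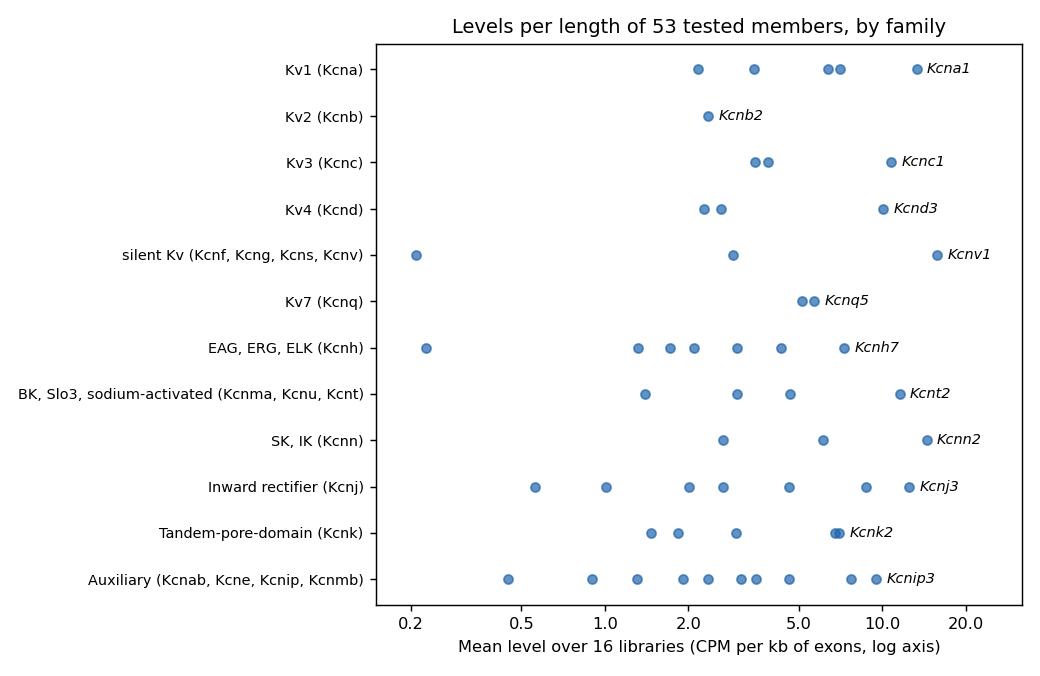
Mean level over 16 libraries in CPM per kb of exons, on a log axis, of 53 of the 56 tested members (points), grouped by family, with the leading member shown of each family named. The small-conductance Kcnn2 lies at 14.4 and the silent subunit Kcnv1 at 15.8 CPM per kb, the tested Kcnk genes between 1.47 and 6.97.

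The 6 members without a count were Kcna7, Kcna10, Kcne1, Kcnj1, Kcnj16 and Kcnk16. A count of 0 over all 16 libraries allows up to 3 counts, or 0.0534 CPM, for counting error only. The 30 other untested members had means up to 4.26 CPM. That highest mean belonged to Kcnk18, a tandem-pore channel known from sensory neurons, which had 61.8 CPM in vehicle nonstressed replicate 3 and at most 4.04 CPM in any other library.

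Differences between groups were fitted over all 13224 tested genes with edgeR's quasi-likelihood test, and the threshold for a call was 0.05 after Benjamini-Hochberg adjustment. In each of the 6 comparisons 0 of the 56 tested members were called, against 0% of all genes. DESeq2 called 0 members as well. The median standard error of a member's log2 difference between a pair of groups was 0.73, against 0.54 for all genes. The values below are log2 differences with standard errors (SE), and none of them passed the adjustment.

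**Figure D3:**
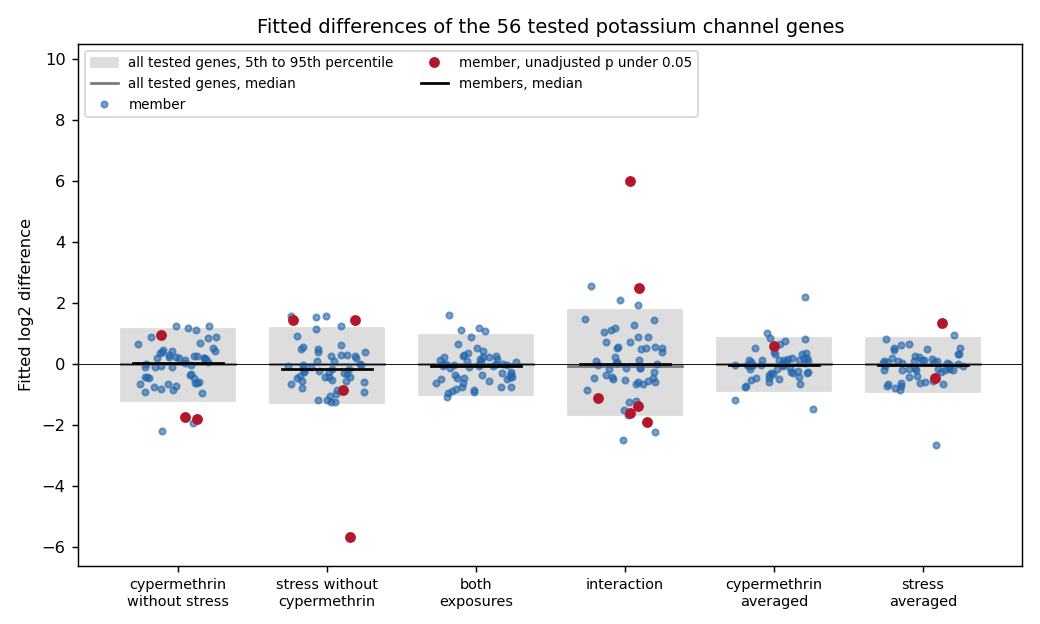
Fitted log2 differences of the 56 tested members (points, red where the unadjusted p was under 0.05) in 6 comparisons, with the members' median as a black line, beside the median and the 5th to 95th percentile of all 13224 tested genes in grey. The members' medians lie between -0.161 and 0.0562 and the point near -5.66 is Kcnf1, which had 0 counts in the vehicle group with stress, so that its fitted value is no measured size.

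The first comparison set the group given cypermethrin alone against the unexposed group. The genes with the smallest p were Kcnt2, which was higher, and the A-type channels Kcnd2 and Kcna4, which were lower. Of the 56 members, 29 were fitted higher and 27 lower, and their median was 0.0562 against 0.0276 for all genes. An unadjusted p under 0.05 was reached by 3 members (5.36%), against 3.71% of all genes, and by 4 members with DESeq2. Of the 3, 1 was higher and 2 lower, against 2.38% and 1.33% of all genes. In 5 members, Kcnt2, Kcnd2, Kcna4, Kcnh7 and Kcnq3, the 4 libraries of one group all lay above those of the other (8.93%), against 2.52% of all genes.

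Kcnt2 stood at 71.0, 53.4, 66.9 and 64.1 CPM in vehicle replicates 1 to 4 and at 114, 86.0, 164 and 131 CPM with cypermethrin. All 4 cypermethrin libraries lay above all 4 vehicle libraries. The means were 63.9 ± 7.52 and 124 ± 32.5 CPM (SD, n = 4), and the log2 difference was 0.95 ± 0.31 (SE), with adjusted p = 0.999 by edgeR with Benjamini-Hochberg adjustment. It was 0.88 and 0.96 within the smaller and the larger library code.

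Kcnd2 stood at 16.2, 37.4, 26.7 and 16.7 CPM in the vehicle libraries and at 11.6, 12.0, 2.39 and 1.40 CPM with cypermethrin. Both groups were apart, and the cypermethrin libraries fell into a pair near 12 CPM and a pair at or below 2.39 CPM. The log2 difference was -1.81 ± 0.75, and -1.20 and -2.02 within the codes. Kcna4, a Kv1 channel with A-type inactivation, stood at 16.5, 13.4, 11.9 and 16.2 CPM in the vehicle libraries and at 9.58, 5.24, 1.59 and 0.934 CPM with cypermethrin. These groups did not overlap either. The difference was -1.71 ± 0.73, and -0.63 and -2.40 within the codes. Kcnd2 and Kcna4 were both lowest in cypermethrin nonstressed replicate 4, the library with the fewest counts. Without that library their differences were -1.48 and -1.39.

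By family, 6 of 7 tested Kcnh genes, 3 of 3 Kv3, 2 of 3 Kv4, 3 of 5 Kcnk, 2 of 4 large-conductance and sodium-activated and 5 of 10 auxiliary genes were fitted higher with cypermethrin. The same held for 1 of 5 Kv1, 2 of 7 inward rectifier, 1 of 3 silent and 1 of 3 Kcnn genes, and for 52.4% of all genes. The leak channel Kcnk1 had the lowest fitted value of all members, -2.19 ± 1.12, with 1.35, 17.6, 5.55 and 11.6 CPM in the vehicle libraries and 2.77, 4.63, 0.266 and 0 CPM with cypermethrin. These groups overlapped, and the difference was -1.76 and -2.33 within the codes. The library at 0 was again cypermethrin nonstressed replicate 4. The 9 glutamatergic markers summed to 4661 to 5493 CPM in the vehicle group and to 5463 to 6538 CPM in the cypermethrin group, with 0 of the 9 at zero, and their part in these differences was not tested.

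The second comparison set the group with restraint alone against the same unexposed libraries. The auxiliary subunit Kcnip3 and the ELK channel Kcnh3 were fitted higher and the silent subunit Kcnf1 had no count in the stressed group, but the first pair rested largely on 1 library. Of the 56 members, 22 were fitted higher and 34 lower, and their median was -0.161 against 0.00876 for all genes. This median was -0.161 also with the stressed group of Kcnf1 set at the counting floor given below, and 0.0220 within the larger code. It ran from -0.23 to -0.10 when each library was left out. An unadjusted p under 0.05 was reached by 4 members (7.14%), against 5.08% of all genes, and by 4 with DESeq2. These were 2 higher and 2 lower, against 3.2% and 1.88% of all genes. Kcnf1 is counted among the lower ones, although its fitted value is no measured size.

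Kcnip3, also known as a calcium-binding repressor named DREAM, stood at 21.9, 9.62, 28.5 and 19.6 CPM without stress and at 125, 25.4, 22.8 and 44.1 CPM with stress. Vehicle stressed replicate 1 was far above the other libraries, and the groups overlapped. The log2 difference was 1.44 ± 0.50. Without that library it was 0.63, and within the codes it was 2.25 and 0.48.

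Kcnh3 stood at 16.2, 12.8, 19.4 and 12.6 CPM without stress and at 91.8, 42.6, 11.0 and 23.8 CPM with stress. The same library was highest, and the groups overlapped. The difference was 1.46 ± 0.56, 0.76 without that library, and 2.21 and 0.13 within the codes. Kcnf1 stood at 4.04, 0.267, 2.78 and 0 CPM without stress and at 0 CPM in all 4 stressed libraries. Its mean without stress, 1.77 CPM, was 7.29-fold the floor of 3 counts over the stressed group, 0.243 CPM. That floor covers counting error only and leaves out the spread between embryos. Vehicle nonstressed replicate 4 was at 0 as well, so the ratio is no lower limit of a difference. Kcnf1 passed the filter on low counts through the other groups.

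The groups did not overlap in 4 members (7.14%), against 2.90% of all genes, and these were Kcnh2, Kcnj2, Kcnd2 and Kcnt1. Kcnh2 stood at 1.01, 3.74, 5.05 and 4.63 CPM without stress and at 15.7, 12.2, 5.34 and 9.43 CPM with stress. Kcnj2, a strong inward rectifier that holds the resting potential, went the other way, from 20.9, 20.3, 15.1 and 13.9 CPM to 0.476, 9.71, 9.97 and 9.19 CPM. Kcnd2 was at 0.951, 13.2, 11.4 and 15.3 CPM with stress, below all vehicle libraries without stress. The sodium-activated Kcnt1 stood at 29.3, 13.1, 19.2 and 14.9 CPM without stress and at 0, 12.8, 9.62 and 11.1 CPM with stress. In all 4 genes vehicle stressed replicate 1, the library that went against its recorded sex, was the most extreme of the stressed libraries. The groups were also apart without it, but no fitted difference is given for these genes in this comparison.

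Kcnj3 was the fourth member at an unadjusted p under 0.05, with a difference of -0.84 ± 0.36. It was -0.48 without vehicle nonstressed replicate 1, -0.64 without vehicle stressed replicate 1, and -1.605 and -0.17 within the codes. Kcnj3 stood at 136, 56.6, 67.6 and 66.4 CPM without stress and at 25.2, 37.9, 64.5 and 54.2 CPM with stress, and the groups overlapped. The 9 radial glia markers, of which 8 passed the filter on low counts, summed to 606.1 to 758.9 CPM without stress. With stress they summed to 808 to 893.7 CPM, where Hes5 was at 0. With both exposures Hes5 was at 0 too, and the sum, 688.3 to 795.1 CPM, overlapped that without exposure. The part of these markers in the differences was not tested.

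Both exposures together were compared with neither. Here 0 of 56 members (0%) reached an unadjusted p under 0.05 with edgeR and 0 with DESeq2, against 1.49% of all genes, 0.786% higher and 0.703% lower. The groups overlapped in every tested member, against 2.62% of all genes without overlap. Of the members, 25 were fitted higher and 31 lower, and their median was -0.0425 against 0.00308 for all genes.

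Kcnn1, a small-conductance channel, stood at 15.8, 40.3, 10.6 and 7.46 CPM in the unexposed group and at 4.62, 5.77, 12.6 and 12.0 CPM with both exposures. Vehicle nonstressed replicate 2 was highest. The difference was -1.08 ± 0.70, but -0.37 without that library, and -2.43 and 0.44 within the codes. Kcnip2, a Kv4-binding subunit, stood at 0, 3.47, 3.53 and 4.12 CPM against 2.60, 12.2, 8.61 and 11.5 CPM. Its difference was 1.63 ± 1.11, and 2.05 and 1.38 within the codes.

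Kcnq3 stood at 71.7, 72.9, 78.5 and 54.0 CPM in the unexposed group and at 124, 63.0, 80.8 and 112 CPM with both exposures. A pair of the exposed libraries was above 100 CPM and the others, at 63.0 and 80.8 CPM, were close to the unexposed ones. The difference was 0.45 ± 0.32, 0.30 without cypermethrin stressed replicate 1, and 0.36 and 0.54 within the codes.

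The interaction asked whether the difference with cypermethrin depended on stress. An unadjusted p under 0.05 was reached by 6 members (10.7%), against 4.70% of all genes, and by 6 with DESeq2. Kcna4 and Kcnf1 were fitted above 0, against 1.61% of all genes, and Kcnt2, Kcnh3, Kcnip3 and Kcnv1 below, against 3.09%. Kcnf1 is counted among the 6, although it had 0 counts in the vehicle group with stress and passed the filter through the other groups. Its fitted value is no measured size. In all, 28 members were fitted above 0 and 28 below, with a median of 0.00293, or -0.00654 without Kcnf1, against -0.0406 for all genes. This comparison uses the same vehicle and cypermethrin libraries without stress as the first one, so its values are not independent of those above.

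Kcnt2 with stress stood at 90.8, 71.7, 48.8 and 64.8 CPM with vehicle and at 73.7, 34.6, 70.2 and 68.5 CPM with cypermethrin. These groups overlapped, unlike those without stress. The interaction was -1.11 ± 0.43, -0.96 without vehicle stressed replicate 1, and -1.46 and -0.67 within the codes. The group mean of 124 CPM with cypermethrin alone was above the means of 63.9 CPM without exposure, 69.0 CPM with stress alone and 61.8 CPM with both. The libraries of the single-exposure groups overlapped, since cypermethrin alone went down to 86.0 CPM and stress alone reached 90.8 CPM.

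Kcna4 with stress stood at 8.09, 14.7, 5.34 and 5.66 CPM with vehicle and at 15.3, 12.0, 13.0 and 17.9 CPM with cypermethrin. The groups overlapped. The interaction was 2.49 ± 1.02, and 0.89 and 3.88 within the codes. Its group means were 14.5 CPM without exposure, 4.34 with cypermethrin alone, 8.45 with stress alone and 14.6 with both, so each single exposure had a lower mean than both together.

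Kcnh3 with cypermethrin stood at 15.4, 13.9, 29.2 and 38.3 CPM without stress and at 17.3, 24.9, 10.2 and 19.2 CPM with stress. The interaction was -1.89 ± 0.78, and -1.20 without vehicle stressed replicate 1. Within the codes it was -1.76 and -1.02. Kcnip3, Kcnh3 and Kcnv1 all had their highest level of the 16 libraries in vehicle stressed replicate 1, at 125, 91.8 and 200 CPM. Without that library, 4 of 60 tested members (6.67%) reached an unadjusted p under 0.05 in the interaction, against 4.28% of all genes.

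**Figure D4:**
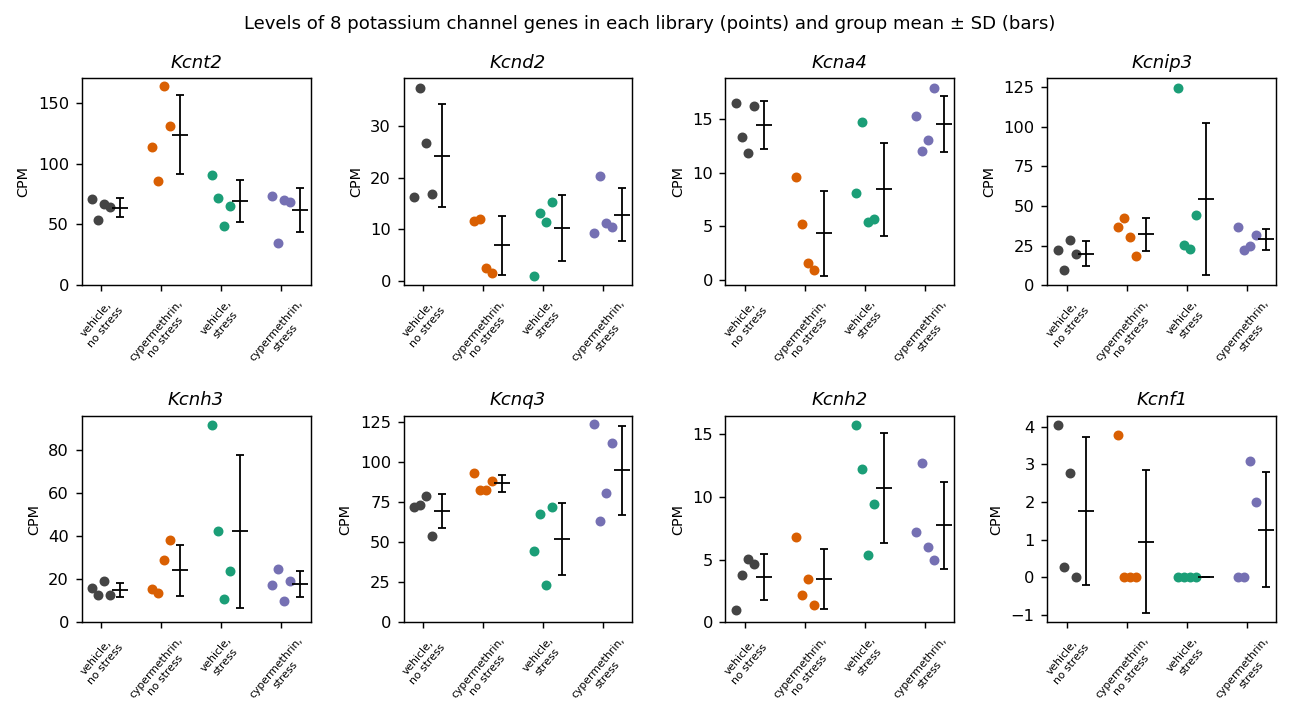
Levels in CPM of 8 members named in the comparisons, for each library (points) in the 4 groups, with group mean ± SD beside them (n = 4). Kcnt2 was highest in the cypermethrin group without stress, at 86.0 to 164 CPM, and the highest points of Kcnip3 and Kcnh3 are both vehicle stressed replicate 1.

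Averaged over both stress conditions, cypermethrin was compared with vehicle over 8 libraries against 8. An unadjusted p under 0.05 was reached by 1 member (1.79%), Kcnq3, against 4.59% of all genes, and by 2 with DESeq2. It was higher, against 2.36% of all genes higher and 2.23% lower. The groups overlapped in every tested member, against 0.0302% of all genes without overlap. Of the members, 26 were fitted higher and 30 lower, and their median was -0.0145 against 0.00873 for all genes.

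Kcnq3 stood at 93.3, 82.3, 82.4 and 88.3 CPM with cypermethrin alone, above all 4 unexposed libraries, and at 44.7, 67.6, 23.2 and 71.9 CPM with stress alone. With the values given above for both exposures, 7 of the 8 cypermethrin libraries were above the highest vehicle library, at 78.5 CPM. The averaged difference was 0.59 ± 0.23, with adjusted p = 0.981 by edgeR with Benjamini-Hochberg adjustment, and 0.55 and 0.68 within the codes.

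Kcnk1 had an averaged difference of -1.46 ± 0.77, which was -1.05 without vehicle stressed replicate 1 and -1.996 and -0.59 within the codes. Its libraries under stress stood at 22.8, 9.08, 0.712 and 6.60 CPM with vehicle and at 1.16, 5.54, 7.73 and 8.97 CPM with cypermethrin, and overlapped. Kcnt2 had an averaged difference of 0.40 ± 0.22, and 0.14 and 0.62 within the codes. By the group means given above, it was higher with cypermethrin only among the groups without stress.

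Averaged over both treatments, stress was compared with no stress. An unadjusted p under 0.05 was reached by 2 members (3.57%), against 5.13% of all genes, and by 2 with DESeq2. Kcnh2 was higher and Kcnt2 lower, against 2.44% and 2.69% of all genes. The groups overlapped in every tested member, against 0% of all genes without overlap. As many members were fitted higher as lower, 28 each, with a median of -0.0294 against -0.000508 for all genes, and of 0.00513 without Kcnf1.

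Kcnh2 stood at 6.81, 2.16, 3.45 and 1.40 CPM with cypermethrin alone and at 7.22, 12.7, 5.96 and 4.98 CPM with both exposures. These groups overlapped, while the vehicle groups given above did not. The averaged difference was 1.34 ± 0.61, with adjusted p = 0.960 by edgeR with Benjamini-Hochberg adjustment. It was 1.22 without vehicle stressed replicate 1, and 1.53 and 0.90 within the codes. The difference of Kcnt2 was -0.45 ± 0.22, -0.52 without that library, and -0.35 and -0.54 within the codes. By the group means given above, Kcnt2 was lower with stress only among the cypermethrin groups. Its mean with stress alone was slightly above that without exposure. The group with cypermethrin alone also enters the first comparison, the interaction and the cypermethrin average, so these values of Kcnt2 are not independent. Kcnf1 had 3.78, 0, 0 and 0 CPM with cypermethrin alone and 0, 0, 3.09 and 1.99 CPM with both, and its group with stress alone was at 0.

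Genes outside the rule that bind, traffic or balance potassium channels were taken from a list of 38, of which 34 were tested. None was called in any comparison, against 0% of all genes. With edgeR, 4 reached an unadjusted p under 0.05 with cypermethrin alone, 1 with stress alone, 0 with both, 4 in the interaction and 1 in each averaged comparison. These were 11.8% of the 34 against 3.71% of all genes with cypermethrin alone, 2.94% against 5.08% with stress alone, 0% against 1.49% with both and 11.8% against 4.7% in the interaction. In the averaged comparisons they were 2.94% against 4.59% for cypermethrin and 2.94% against 5.13% for stress. With cypermethrin alone these were Amigo1, a Kv2-binding protein, at 1.82 ± 0.70, Dpp10 and Dpp6, which bind Kv4 channels, at -1.57 ± 0.62 and 1.10 ± 0.47, and the calmodulin gene Calm2, a sensor of Kv7 and Kcnn channels, at 0.33 ± 0.15. Amigo1, Dpp10 and Dpp6 were again among the 4 in the interaction, which uses the same libraries without stress. The shares of this pair of comparisons are therefore not independent.

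Amigo1 stood at 14.1, 22.7, 20.2 and 13.4 CPM with vehicle and at 13.6, 19.4, 171 and 44.8 CPM with cypermethrin alone. Dpp6 stood at 32.3, 41.4, 65.9 and 40.1 CPM with vehicle and at 47.9, 38.2, 49.7 and 253 CPM with cypermethrin alone. In each of these genes a single cypermethrin library was far above the rest, and the groups overlapped. Without that library the difference was 0.56 for Amigo1 and 0.016 for Dpp6. Within the codes it was -0.43 and 2.23 for Amigo1 and 0.38 and 1.096 for Dpp6. Dpp10 stood at 92.9, 31.8, 41.4 and 38.9 CPM with vehicle and at 18.4, 33.6, 13.3 and 2.80 CPM with cypermethrin alone, and these overlapped as well. Its lowest level was in cypermethrin nonstressed replicate 4, the library with the fewest counts. Within the codes the difference was -1.75 and -1.26 for Dpp10 and 0.40 and 0.25 for Calm2. With stress alone the anchoring protein Akap5 had -1.06 ± 0.48, which was -0.66 without vehicle nonstressed replicate 1 and -1.38 and -0.71 within the codes.

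Kcnj8 is known, with Abcc9, as an ATP-sensitive channel of brain pericytes, and its level was set against 7 pericyte markers. Kcnj8 stood at 2.69, 0.267, 5.05 and 7.21 CPM without exposure, 1.77, 2.16, 30.6 and 0 with cypermethrin alone, 0, 4.07, 25.3 and 5.19 with stress alone, and 0, 8.07, 4.42 and 12.0 with both. A library in each of the single-exposure groups was far above the others, and the groups overlapped. Over the 16 libraries, log2(CPM + 1) of Kcnj8 and the mean of the markers had Pearson's r = 0.355 (permutation p = 0.178) and Spearman's rho = 0.339 (permutation p = 0.197), the only such relation computed. Without the 2 libraries farthest from the median marker level r was 0.172 (permutation p = 0.558), and within the codes it was 0.464 over 9 libraries and 0.0897 over 7. The pericyte markers summed to 90.84 to 637.9 CPM over the 16 libraries, and a relation of Kcnj8 to them was not detectable over 16 libraries.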

How the data were processed

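The authors deposited whole-number counts for each gene symbol, 1 column per library. STAR 2.5 and mm10 are named in the submitters' processing notes, and no source used here gives the counting program, its gene models, whether it used strand, or its filters. The RNA came from fixed tissue, per the labels' protocols. Groups came from the treatment labels. Replicate numbers follow accession order and pair no libraries.

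Counts were analysed in R 4.3.3 with edgeR 4.0.16. Genes were kept by filterByExpr with a count minimum of 10, which left 13224, and libraries were scaled by TMM. All 16 libraries entered 1 robust quasi-likelihood fit with a mean for each group (common dispersion 0.344, 12 residual degrees of freedom). Adjusted p-values are Benjamini-Hochberg values over all tested genes, and standard errors come from the fold change and its F statistic. CPM are counts over TMM-scaled library sizes. DESeq2 1.42.0 was an alternative, beside other scaling, no filter, the library code as a term, fits within each code, and leaving out each library. No 2 libraries agreed within sampling noise (smallest chi-square per gene 5.98). The fits were tested on simulated data. The correlation used 100000 permutations.

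Gene positions, exon lengths and coding sequences came from GENCODE vM21, where all 92 members had 1 protein-coding entry. The filter was searched as codons in place of the planned protein search, because no protein table was used here. The members, lists and tests were chosen with earlier results of these data known. Members given with values are taken from the 12 with the highest mean CPM, the 3 with the smallest p in each comparison and 19 set by their role. Kcnq5, Kcnq1, Kcna6, Kcng1, Kcnk4, Kcnk6, Kcnk7, Kcnk10, Kcnk18, Kcnj2, Kcnj15, Kcnt1 and the members listed at 0 were named after their values were seen. Some members and partner genes are not reported here.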

Additional observations from a re-analysis of the deposited data

Results flagged for a closer look

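For 31 named members, the highest or lowest library of each group of 4 was compared with the nearest of the others. Of 121 groups with any spread, 10 held a library that stood apart by Dixon's criterion at 95%. Its chance rate of about 1 in 20 holds for normally distributed values, not for skewed CPM with zeros. The count was therefore not set against chance. In 8 of the 10 the library was high. Kcnh7 was at 197 CPM in cypermethrin stressed replicate 1, where the next library had 79.2, and Kcnn3 was at 80.0 CPM in the same library, with 52.5 next. Kcnc1 was at 188 CPM in cypermethrin nonstressed replicate 4, with 84.5 next. Kcnj3 was at 136 CPM in vehicle nonstressed replicate 1, with 67.6 next, and Kcnip2 was at 0 CPM in that library, where the lowest of the others had 3.47. Kcnt2 was at 34.6 CPM in cypermethrin stressed replicate 2, with 68.5 as the next lowest. Kcnj8 was at 30.6 CPM in cypermethrin nonstressed replicate 3, with 2.16 next. In the remaining groups the other 3 libraries were at 0, with Kcnf1 at 3.78 CPM in cypermethrin nonstressed replicate 1 and Kcnj10 at 0.626 CPM in vehicle stressed replicate 2 and at 3.49 CPM in cypermethrin stressed replicate 4. Such groups meet the criterion whatever the value of the highest library.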

How the results depend on the processing

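No member was called in any of the 6 comparisons under any of 22 other fits. No gene of the table was called in most of them either. The exceptions were the fit within the smaller library code, which called 2 genes with cypermethrin alone, 45 with stress alone, 13 with both, 9 in the interaction, 14 for cypermethrin averaged and 7 for stress averaged, and, for cypermethrin averaged, DESeq2 with 1 gene. Leaving out each library in turn gave 0 to 1 genes for cypermethrin averaged, the 1 without vehicle stressed replicate 3, and 0 in the others. Of 550 values of named differences under these fits, 547 kept their direction. This was likely in advance, since most were picked for a small p in these same data and most fits left out only 1 library. The exceptions were Amigo1 with cypermethrin alone at -0.433 within the smaller code and, within the larger code, Kcnn1 with both exposures at 0.44 and Kcnf1 with stress averaged at 0.428. Their cause was not tested, and since Kcnf1 was at 0 in a whole group its fitted value gives neither a size nor a direction. With all 18733 counted genes tested, members at an unadjusted p under 0.05 numbered 10, 9, 6, 11, 6 and 7 of 86 in the order of the report (6.98% to 12.8%), against 5.49%, 6.77%, 3.46%, 6.42%, 6.27% and 6.41% of all genes. The correlation of Kcnj8 with pericyte markers ran from 0.164 to 0.488 when each library was left out. All 408 alternative mean levels stayed within 1 SD. Nearly all of these left out 1 of the 16 libraries, which cannot move a mean by 1 SD. The count therefore says little. Levels per kilobase were not part of it. With the longest transcript Kcnn2 moved from 14.4 to 29.3 CPM per kb, against an SD of 5.37. No paired analysis was possible because the replicate numbers are only an accession order. Depth limits the members with few counts, and the precision is that of 4 libraries per group.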

Other observations

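Members whose counts came mainly from 1 library were seen among the untested genes. Kcnk18 had 266 counts in all, at 61.8 CPM in vehicle nonstressed replicate 3, and Kcnk4, another tandem-pore gene, had 29 counts over 4 libraries with a highest level of 10.7 CPM. Kcnk4 overlaps Catsperz on the same strand, and their means were 0.771 and 0.753 CPM, so its counts are uncertain. Kcnj15 reached 19.0 CPM against a median of 0.178 CPM. Members with a count numbered 47 in vehicle stressed replicate 1 and 57 to 78 in the other 15 libraries. The counts of vehicle stressed replicate 1 totalled 2410165, and cypermethrin nonstressed replicate 4, with 2291283 counts, had 58 members with a count.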
